A study of Rattus norvegicus with 16 samples.

Results

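The 10 genes described here encode matricellular proteins (Sparc, Sparcl1, Spp1, Tnc, Tnr, Thbs1, Thbs2 and Postn) and the paired heparin-binding growth factors midkine (Mdk) and pleiotrophin (Ptn). They were taken by symbol from a list that was drawn up with earlier results of these data known, and all 10 were present among the 31038 genes of the table. The series sequenced RNA of 16 rat libraries that form 8 groups of 2. The material came from uncrushed sciatic nerve or from nerve 3, 5 and 7 days post-crush, and each of these 4 stages was sampled as purified Schwann cells and as whole nerve. The labels give no strain, and no group carried a transgene.

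Animals were operated at postnatal day 18, when a crush was made to the sciatic nerve of the left thigh. Only the segment distal to the crush was collected, and the matching segment was taken from uncrushed animals, which had no sham operation. The study took postnatal day 18 as its initial timepoint, and the age of uncrushed animals at collection is not given separately. Crushed animals grew older from stage to stage, so time after injury and age cannot be told apart. Each library pooled at least 10 nerves, so that 2 libraries stand for 2 pools and not for single animals. Schwann cells were purified by immunopanning, in which dissociated cells pass over dishes that hold back CD45+ and Thy1+ cells before an O4 dish retains the Schwann cells. Whole nerve was not dissociated and its RNA was extracted with another kit, so tissue composition, dissociation and extraction cannot be told apart in a comparison of the 2 tissues. The study expected little change from purification, immediate early genes excepted, and reported that comparing whole with dissociated nerve bore this out. No dissociated nerve was among these 16 libraries.

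Matricellular proteins are secreted into the extracellular matrix, where they act less as scaffold than as modulators of the contact between cells and matrix. SPARC and its relative SPARC-like 1 (hevin) bind collagen, osteopontin (Spp1) binds integrins and CD44, tenascins and thrombospondins alter adhesion and synapse formation, and periostin organizes collagen. Midkine and pleiotrophin are growth factors that bind syndecans and the receptor phosphatase PTPRZ1 and promote neurite outgrowth. In the peripheral nerve, proteins of this kind are known to be made by Schwann cells, fibroblasts and macrophages during the degeneration of axons that follows a crush.

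The libraries held 10555067 to 27562637 expected counts. Levels are given as FPKM, in which fragments are scaled to transcript length and to the size of the library, so that genes can be compared per length. Log2 fold changes with their standard errors (SE) come from the quasi-likelihood test of edgeR on counts, and a gene was called when its p-value, adjusted over all genes tested, was under 0.05. With 2 libraries a group, an exact permutation test of single values cannot go below p = 0.333. The purified libraries carried the summed FPKM of 9 Schwann cell markers at 4210 to 9405, with every marker above 0. In whole nerve the same sum was 18104 to 21597 when uncrushed and 2419 to 2542 at 3 days. The 9 myeloid markers summed to between 7.83 and 68.9 FPKM in purified cells and to between 427 and 2657 FPKM in whole nerve. The highest of the purified values belonged to replicate 2 of the 3-day Schwann cells, against 11.1 FPKM in its partner, where the myeloid marker Cx3cr1 was at 0.

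Primers of the study for quantitative PCR exist for 4 of the 10 genes, and are shown because these 4 were the members with the largest log2 fold changes in Schwann cells at 3 days. The study had picked those transcripts from these same libraries, so their presence among the primers is not independent evidence of their change. It also measured these 4 genes by quantitative PCR in purified Schwann cells and reported that the results matched its sequencing. By in situ hybridization it reported a rise of Mdk and a fall of Sparcl1 in S100+ Schwann cells. Those measurements were not examined here. Capitals are used throughout each primer because no base is singled out.
Spp1: CCAGCCAAGGACCAACTACA
Tnc: CAGCTACCGACGGGATCTTC
Sparcl1: TCACTCTAGACCCTGACGGG
Mdk: GTGCCCTGCAACTGGAAGAA

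Promoter sequences from RefSeq (build GRCr8, while the expression files use Rnor_6.0) were matched for 8 of the 10 members. The 250 bases before the start are shown for Spp1 at chr14:5619805-5620054 (minus strand), Tnc at chr5:82476132-82476381 (minus strand) and Sparcl1 at chr14:5937234-5937483 (plus strand). Spp1 and Tnc rose together and Sparcl1 fell after crush, which is why this set was chosen. Each sequence is written from 5′ to 3′ in the direction of its gene, and capitals mark matches, on either strand, to the letters of the TATA box motif or the GC box motif, which are spelled out beside their frequencies.
Spp1: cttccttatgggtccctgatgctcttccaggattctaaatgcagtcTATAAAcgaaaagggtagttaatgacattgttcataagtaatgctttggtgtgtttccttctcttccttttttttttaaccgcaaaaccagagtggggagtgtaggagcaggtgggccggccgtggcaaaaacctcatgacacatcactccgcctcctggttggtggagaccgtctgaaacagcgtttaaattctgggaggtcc
Tnc: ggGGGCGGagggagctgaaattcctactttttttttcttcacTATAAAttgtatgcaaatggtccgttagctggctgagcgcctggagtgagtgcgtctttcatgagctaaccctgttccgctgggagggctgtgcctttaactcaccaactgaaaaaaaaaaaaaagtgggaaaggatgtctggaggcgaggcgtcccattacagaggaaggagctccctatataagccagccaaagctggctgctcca
Sparcl1: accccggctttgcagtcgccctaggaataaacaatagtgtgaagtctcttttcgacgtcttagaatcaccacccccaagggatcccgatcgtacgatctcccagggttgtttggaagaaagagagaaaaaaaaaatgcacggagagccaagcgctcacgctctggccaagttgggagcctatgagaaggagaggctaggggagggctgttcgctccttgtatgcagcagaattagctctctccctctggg

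The letters TATAAA of the TATA box motif were present in the windows of Spp1 (204 bases before the start), Tnc (208 bases) and Postn (44 bases), and in 12.9% of 33469 promoters of the same length. The window of Sparcl1 held none of the 4 motifs searched. TGANTCA, the AP-1 motif, occurred among the 8 members in Ptn alone (80 bases before the start) and in 6.34% of all promoters. TGTGGT or its complement, the core of the Runx motif, occurred in Sparc alone among the 8 and in 14.5% of all promoters. The letters GGGCGG of the GC box motif were found in the windows of Tnc, Thbs1 and Ptn and in 30.5% of all. No motif overlapped another in these windows, and a match is a description of letters and not of binding.

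After crush, purified Schwann cells had far less Sparcl1 and more Tnc, Mdk and Spp1, while Sparc, the member with the highest level throughout, fell more modestly. At 3 days, 4 of the 9 tested members were higher (Mdk, Spp1, Thbs2 and Tnc) and 3 lower (Postn, Sparc and Sparcl1), beside 26.9% of all 14961 tested genes called higher and 25.7% called lower. At 5 days 5 were higher and 2 lower, beside 29.0% and 25.6% of all genes. At 7 days 5 were higher and 2 lower, beside 25.0% and 21.9% of all genes. The median absolute log2 fold change of the 9 members at 3 days was 1.70, and that of all tested genes was 0.62. Tnr did not pass the filter on low counts and was not tested.

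**Figure D1:**
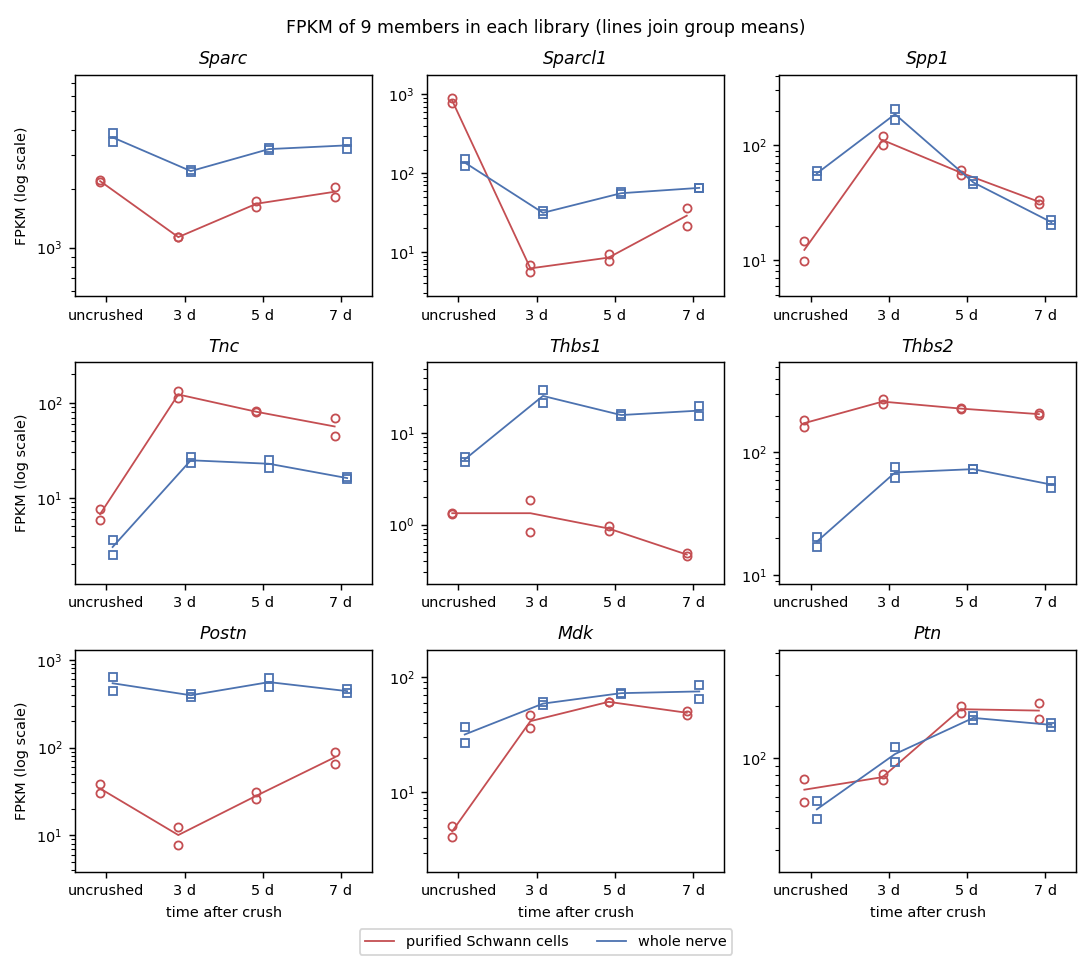
FPKM on a log scale (vertical axis) of 9 members in each library by time after crush (horizontal axis), with circles for purified Schwann cells, squares for whole nerve and lines through the means of 2 libraries. Sparcl1 of Schwann cells drops from 771 to 895 FPKM to 5.53 to 6.87 FPKM at 3 days, while Tnc, Mdk and Spp1 rise.

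In whole nerve, 6 of the 9 tested members were higher and 3 lower at 3 days, beside 23.1% and 22.5% of 15831 tested genes. At 5 days 5 were higher and 3 lower, beside 18.9% and 19.5% of all genes, and at 7 days 5 were higher and 4 lower, beside 15.4% and 15.9%. The 3-day rises in whole nerve were in Mdk, Ptn, Spp1, Thbs1, Thbs2 and Tnc, and the falls in Postn, Sparc and Sparcl1. Spp1 was called in opposite directions in the 2 tissues at 5 and 7 days, and Thbs1 and Postn at 7 days.

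Sparcl1 encodes a secreted glycoprotein of the SPARC family known in the brain as a promoter of synapse formation. Its level in uncrushed Schwann cells was 895 and 771 FPKM, which placed it at ranks 47 and 61 of all genes in those libraries. It stood at 5.53 and 6.87 FPKM at 3 days, at 9.34 and 7.65 FPKM at 5 days and at 36.5 and 21.4 FPKM at 7 days. No crushed library approached the uncrushed level, and the 7-day libraries lay above those of 3 and 5 days. The fall was 128-fold at 3 days (log2 fold change -7.00, SE 0.28, adjusted p = 9.54e-08) and still 29.4-fold at 7 days (log2 -4.88, SE 0.25, adjusted p = 7.42e-07). By log2 fold change at 3 days it ranked 46 from the lowest of 14961 tested genes.

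Whole nerve had 123 and 150 FPKM of Sparcl1 when uncrushed, 32.7 and 30.2 FPKM at 3 days, 54.2 and 57.3 FPKM at 5 days and 65.5 and 64.9 FPKM at 7 days. The fall was 5.77-fold at 3 days (log2 -2.53, SE 0.11, adjusted p = 6.73e-08) and 2.78-fold at 7 days (log2 -1.48, SE 0.11, adjusted p = 4.52e-06). Uncrushed Schwann cells exceeded uncrushed whole nerve 4.91-fold (log2 2.30, SE 0.20, adjusted p = 1.78e-07). At 3 days the order was inverted, with whole nerve 4.87-fold above Schwann cells (log2 ratio of Schwann cells to whole nerve -2.28, SE 0.21, adjusted p = 4.03e-07). Whole nerve in these stages held Sparcl1 together with endothelial markers summing to 75.9 to 109 FPKM, which summed to 0.60 to 4.09 FPKM in purified cells, and the part of those cells in the whole-nerve level was not tested. In bulk RNA, fewer cells of a type and less RNA per cell cannot be told apart.

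Sparc, the collagen-binding founder of the family, had 2211 and 2176 FPKM in uncrushed Schwann cells, where it ranked 14 and 16 of all genes. It had 1131 and 1135 FPKM at 3 days, 1739 and 1620 FPKM at 5 days and 2047 and 1821 FPKM at 7 days. The groups did not overlap, and the 3-day libraries were the lowest. The log2 fold change was -0.90 at 3 days (SE 0.10, adjusted p = 6.17e-05), -0.41 at 5 days (SE 0.10, adjusted p = 0.0072) and -0.22 at 7 days, when it was not called (adjusted p = 0.0975) but was with DESeq2 (log2 -0.27, adjusted p = 0.0325). Without replicate 2 of the 5-day cells the 5-day difference was not called (log2 -0.33, adjusted p = 0.0702).

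Whole nerve had more Sparc than Schwann cells at every stage, with 3492 and 3855 FPKM when uncrushed, 2492 and 2443 FPKM at 3 days, 3249 and 3150 FPKM at 5 days and 3204 and 3483 FPKM at 7 days. The fall from uncrushed was -0.98 at 3 days, -0.61 at 5 days and -0.55 at 7 days on the log2 scale, with adjusted p = 9.03e-06, 0.000367 and 0.000929. These are falls of 1.975-fold, 1.52-fold and 1.46-fold on normalized counts. By mean FPKM the falls were smaller, at 1.49-fold, 1.15-fold and 1.10-fold. The fall in Schwann cells minus that in whole nerve was -0.02 at 3 days (SE 0.14, adjusted p = 0.9357). A p that misses the threshold does not show that the 2 falls were alike. Sparc made up 64.8% and 67.2% of the summed FPKM of the 10 members in uncrushed Schwann cells, and 64.0% and 64.5% at 3 days.

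Spp1 encodes osteopontin, a phosphoprotein with an RGD integrin-binding site. Uncrushed Schwann cells had 14.8 and 9.77 FPKM, against 101 and 121 FPKM at 3 days, 54.7 and 60.9 FPKM at 5 days and 33.6 and 30.9 FPKM at 7 days. All crushed libraries lay above both uncrushed libraries, and the levels descended from 3 to 7 days without overlap. The rise was 9.37-fold at 3 days (log2 3.23, SE 0.18, adjusted p = 4.78e-07) and 2.54-fold at 7 days (log2 1.35, SE 0.17, adjusted p = 0.000197). From 3 to 7 days it fell 3.68-fold (log2 -1.88, SE 0.16, adjusted p = 7.16e-05). In purified cells 2 of the 8 tested myeloid markers, Lyz2 and Ptprc, were called higher at 3 days, beside 26.9% of all genes. None was called at 5 or 7 days, beside 29.0% and 25.0% of all genes called higher. Replicate 2 of the 3-day cells, with the higher myeloid sum, also had the higher Spp1, and without it the 3-day rise was 3.08 on the log2 scale and still called.

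Spp1 in whole nerve rose and then dropped under its uncrushed level. The values were 54.2 and 59.6 FPKM when uncrushed, 166 and 206 FPKM at 3 days, 46.0 and 49.1 FPKM at 5 days and 22.5 and 20.4 FPKM at 7 days. The log2 fold change was 1.31 at 3 days (SE 0.11, adjusted p = 7.48e-06), -0.67 at 5 days (SE 0.12, adjusted p = 0.0013) and -1.81 at 7 days (SE 0.12, adjusted p = 2.5e-06). At 7 days the 2 tissues therefore moved in opposite directions from their own uncrushed level, and the difference of the effects was 3.04 (log2, SE 0.23, adjusted p = 4.2e-07). Myeloid markers in whole nerve summed to 427 to 445 FPKM when uncrushed, 2632 to 2657 at 3 days, 1340 to 1435 at 5 days and 1386 to 1474 at 7 days, and their part in the level of Spp1 was not tested.

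The order of Spp1 levels was whole nerve at 3 days, Schwann cells at 3 days, Schwann cells at 5 days, uncrushed whole nerve, whole nerve at 5 days, Schwann cells at 7 days, whole nerve at 7 days and uncrushed Schwann cells. Only Schwann cells at 5 days and uncrushed whole nerve overlapped among neighbours in that order. On the scale of normalized counts, these 2 groups changed places.

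Spp1 and Sparcl1 lie in the same cluster of the rat genome. On chromosome 14 of GRCr8, 6 protein-coding genes follow each other as Spp1, Mepe, Ibsp, Dmp1, Dspp and Sparcl1, a cluster known for secreted phosphoproteins of bone and tooth. The genes at the 2 ends moved in opposite directions in Schwann cells at 3 days, as given above. Ibsp (bone sialoprotein), in the middle, had 8.01 and 9.67 FPKM in uncrushed Schwann cells and 0.40 and 0.58 FPKM at 3 days, a log2 fold change of -4.06 (SE 0.37, adjusted p = 1.39e-05), and 9.18 and 7.19 FPKM at 5 days. In whole nerve Ibsp was lower at 3 days (log2 -1.46, SE 0.27, adjusted p = 0.0015) and higher at 5 days (log2 2.71, SE 0.22, adjusted p = 6.5e-06). Mepe, Dmp1 and Dspp had at most 8 counts in any library.

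Tnc encodes tenascin-C, a hexameric glycoprotein known from developing and injured tissue. Uncrushed Schwann cells had 7.67 and 5.79 FPKM, while 3-day cells had 134 and 112 FPKM, 5-day cells 81.1 and 79.9 FPKM and 7-day cells 44.3 and 68.6 FPKM. No crushed library overlapped the uncrushed libraries. The rise was 19.7-fold at 3 days (log2 4.30, SE 0.22, adjusted p = 3.27e-07), 12.1-fold at 5 days (log2 3.59, SE 0.21, adjusted p = 1.11e-06) and 8.33-fold at 7 days (log2 3.06, SE 0.21, adjusted p = 3.98e-06). Tnc ranked 174 of 14961 genes by log2 fold change at 3 days.

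In whole nerve Tnc had 2.48 and 3.58 FPKM when uncrushed, 23.0 and 26.6 FPKM at 3 days, 20.7 and 24.9 FPKM at 5 days and 15.6 and 16.6 FPKM at 7 days. It was 6.67-fold higher at 3 days (log2 2.74, SE 0.17, adjusted p = 5.14e-07). Schwann cells held more Tnc than whole nerve at every stage, by 1.95-fold when uncrushed and by 5.37-fold at 3 days (log2 0.96 and 2.43, adjusted p = 0.0013 and 1.16e-07). The rise in Schwann cells exceeded that in whole nerve at 3 days (difference of log2 fold changes 1.46, SE 0.29, adjusted p = 0.0017). At 5 and 7 days the differences of 0.84 and 0.87 were not called without replicate 2 of the uncrushed cells, among other single libraries (adjusted p = 0.128 and 0.117).

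The annotation holds 6 Tnc transcripts, and the mean transcript length that RSEM weights by isoform abundance differed between the tissues. It lay between 6498 and 6697 bases in uncrushed Schwann cells and between 6831 and 6894 bases at 3 days. In whole nerve it lay between 6110 and 6139 bases when uncrushed and between 6498 and 6574 bases at 3 days. Schwann cell libraries lay above whole nerve libraries at each of the 4 stages without overlap. Tenascin-C is known to be spliced into forms with more or fewer fibronectin type III repeats, but which exons differed was not analysed here. Postn, with 4 annotated transcripts, also had longer means in Schwann cells (3162 to 3228 bases) than in whole nerve (3131 to 3141 bases).

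**Figure D2:**
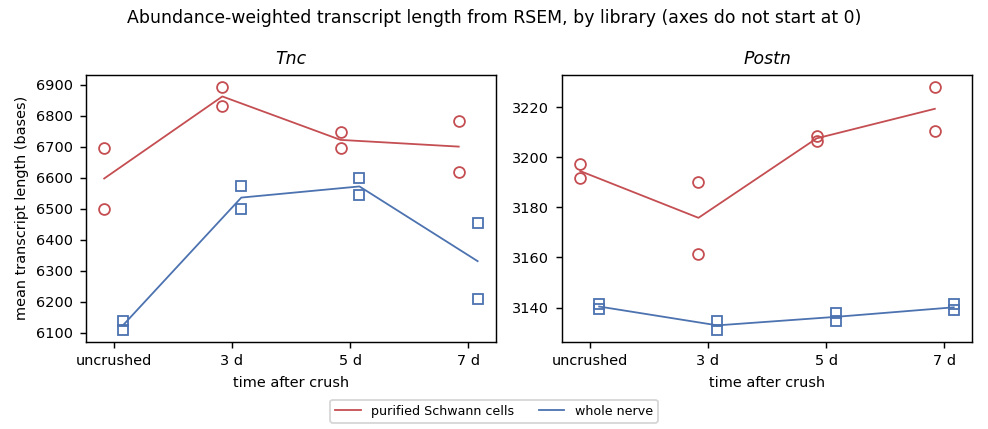
Mean transcript length in bases (vertical axes, which do not start at 0) of Tnc and Postn in each library by time after crush (horizontal axes), with circles for purified Schwann cells, squares for whole nerve and lines through group means. For both genes every Schwann cell library lies above the whole nerve libraries of the same stage.

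Tnr, the tenascin of the central nervous system, was at 0 counts in 7 of the 8 Schwann cell libraries and at 1 count in the other. In whole nerve it had 0 counts in both uncrushed libraries, 5 and 8 counts at 3 days, 2 and 14 counts at 5 days and 5 and 0 counts at 7 days. A total of 3 counts over the uncrushed Schwann cell libraries would be 0.113 CPM (counts scaled to library size), so Tnr was not detectable in them at this depth. Whole nerve at 3 days had at least 2.93-fold more than that limit in uncrushed whole nerve, a bound that covers counting error only. On chromosome 13 of GRCr8, Tnr is separated from Tnn (tenascin-N, also called tenascin-W) by 1 other protein-coding gene, and Tnn behaved otherwise. Tnn had 0 counts in both uncrushed Schwann cell libraries, 27 and 56 counts at 3 days, 94 and 112 counts at 5 days and 69 and 78 counts at 7 days. Against the limit of 3 counts over the uncrushed group it was at least 17.0-fold higher at 3 days, 51.9-fold at 5 days and 43.2-fold at 7 days.

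Thbs1 and Thbs2 encode the trimeric thrombospondins, secreted proteins that bind CD36 and CD47 and are known as synapse-promoting factors of astrocytes. The 2 genes separated by tissue. Thbs2 had 162 and 185 FPKM in uncrushed Schwann cells, against 1.34 and 1.32 FPKM of Thbs1. In uncrushed whole nerve Thbs2 had 17.0 and 20.6 FPKM and Thbs1 4.83 and 5.46 FPKM. Schwann cells thus exceeded whole nerve 7.47-fold for Thbs2 (log2 2.90, SE 0.13, adjusted p = 2.36e-10) and fell 4.78-fold short of it for Thbs1 (log2 -2.26, SE 0.28, adjusted p = 6.38e-06).

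After crush Thbs2 of Schwann cells was 271 and 249 FPKM at 3 days, 229 and 227 FPKM at 5 days and 210 and 201 FPKM at 7 days. The 3-day rise was 1.55-fold (log2 0.63, SE 0.11, adjusted p = 0.000852), the 5-day difference was 0.37 (SE 0.11, adjusted p = 0.0156), and at 7 days 0.20 was not called (adjusted p = 0.1475). The 5-day call was lost without replicate 1 of the uncrushed cells (log2 0.25, adjusted p = 0.0603) and without replicate 1 of the 5-day cells (log2 0.35, adjusted p = 0.0695). Whole nerve rose to 61.8 and 75.5 FPKM at 3 days and to 72.7 and 73.6 FPKM at 5 days, with 51.4 and 58.1 FPKM at 7 days. That rise was 2.75-fold at 3 days (log2 1.46, SE 0.12, adjusted p = 5e-06), and it exceeded the rise in Schwann cells by 0.93 on the log2 scale (the effect in Schwann cells minus that in whole nerve was -0.93, SE 0.17, adjusted p = 0.000873).

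Thbs1 in whole nerve was 21.3 and 29.6 FPKM at 3 days, 15.3 and 16.2 FPKM at 5 days and 15.5 and 19.6 FPKM at 7 days. The rise was 3.73-fold at 3 days (log2 1.90, SE 0.17, adjusted p = 7.32e-06). In Schwann cells it was 0.82 and 1.84 FPKM at 3 days, 0.96 and 0.85 FPKM at 5 days and 0.49 and 0.45 FPKM at 7 days. The 3-day difference of 0.08 was not called (SE 0.36, adjusted p = 0.8622), and at 7 days the level was 2.87-fold lower (log2 -1.52, SE 0.40, adjusted p = 0.0114). Without either 7-day library the 7-day call was lost, at adjusted p = 0.053 and 0.0558.

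The 2 Schwann cell libraries at 3 days disagreed for Thbs1. Replicate 2, with the higher value, also had the higher sums of myeloid markers (68.9 against 11.1 FPKM), platelet markers (2.29 against 0.03 FPKM) and endothelial markers (4.09 against 0.81 FPKM). Without it the 3-day log2 fold change of Thbs1 was -0.65 (adjusted p = 0.173), and the change from 3 to 7 days was -0.86 (adjusted p = 0.184) in place of -1.60 (adjusted p = 0.0176). Platelet markers summed to 23.6 to 29.2 FPKM in uncrushed whole nerve and to 81.6 to 91.8 FPKM at 3 days, with at most 1 of the 4 at 0 in a library of these groups, and their part in Thbs1 was not tested.

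Postn encodes periostin, a fasciclin-domain protein of collagen-rich tissue. It was a gene of whole nerve above all, with 645 and 438 FPKM when uncrushed, 411 and 379 FPKM at 3 days, 623 and 493 FPKM at 5 days and 417 and 463 FPKM at 7 days. Uncrushed Schwann cells had 38.2 and 30.0 FPKM, 19.4-fold less (log2 -4.28, SE 0.26, adjusted p = 5.31e-09). Fibroblast markers summed to 4492 to 6710 FPKM in whole nerve and to 245 to 584 FPKM in purified cells, and their part in Postn was not tested. All 7 were above 0 in purified cells, where Col1a1 (146 to 301 FPKM) and Col1a2 (12.7 to 249 FPKM) made up most of the sum. Col1a2 was listed at 0 in 4 of the 8 whole nerve libraries and at up to 293 FPKM in the others. Dcn had 3.12 to 17.9 FPKM in purified cells and 1703 to 3064 FPKM in whole nerve.

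Postn in Schwann cells was lower than uncrushed at 3 days and higher at 7 days. It stood at 7.68 and 12.4 FPKM at 3 days, at 30.9 and 25.6 FPKM at 5 days and at 90.0 and 64.6 FPKM at 7 days. The 3-day libraries lay below the uncrushed libraries and the 7-day libraries above them. The log2 fold change was -1.70 at 3 days (SE 0.24, adjusted p = 0.000259), -0.28 at 5 days (adjusted p = 0.3183) and 1.16 at 7 days (SE 0.23, adjusted p = 0.0027). From 3 to 7 days it rose 7.25-fold (log2 2.86, SE 0.25, adjusted p = 7.1e-05). Over the same interval none of the 7 fibroblast markers was called higher in purified cells and Fn1 was called lower, beside 21.0% of all genes called in either direction. Of the 5 mural cell markers, Pdgfrb was called higher and Cspg4 lower. Pdgfrb had 29.1 to 33.7 FPKM in uncrushed Schwann cells, 3.06 to 3.74 FPKM at 3 days and 11.9 to 12.7 FPKM at 7 days. Of these stages it was lowest at 3 days, like Postn. At 7 days, however, Pdgfrb was still called lower against uncrushed, whereas Postn was called higher. Between the uncrushed tissues, Pdgfrb was called higher on the side of the purified cells. Acta2, Myh11 and Rgs5 were called lower there, and Cspg4 was not called. The part of either cell type in the course of Postn was not tested. Dcn had 6.77 and 17.9 FPKM as its lowest and highest values at 3 days and 4.51 and 6.56 FPKM at 7 days.

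Whole nerve had lower Postn at 3 days (log2 -0.87, SE 0.17, adjusted p = 0.0018) and at 7 days (log2 -0.71, SE 0.17, adjusted p = 0.0089). The 7-day call was lost without replicate 1 of uncrushed whole nerve (log2 -0.40, adjusted p = 0.0641), which had the highest Postn of all libraries, without replicate 1 of 7-day whole nerve (log2 -0.61, adjusted p = 0.0656), and in the fit of all 16 libraries (log2 -0.61, adjusted p = 0.0591). At 7 days the effects in the 2 tissues differed by 1.75 (log2, SE 0.33, adjusted p = 0.0012). At 3 days the difference of -0.94 was called at adjusted p = 0.0497 and not with DESeq2 (adjusted p = 0.0801). That call was also lost without any of 5 single libraries, the farthest being replicate 1 of the 3-day Schwann cells (-0.64, adjusted p = 0.19).

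Mdk and Ptn encode the 2 members of the midkine family. Uncrushed Schwann cells had very little Mdk, at 5.10 and 4.12 FPKM or 26 and 27 counts. It reached 36.4 and 46.5 FPKM at 3 days, 60.9 and 61.0 FPKM at 5 days and 50.7 and 47.3 FPKM at 7 days. All crushed libraries lay above the uncrushed pair. The rise was 13.2-fold at 3 days (log2 3.73, SE 0.19, adjusted p = 3.5e-07), 18.2-fold at 5 days (log2 4.19, SE 0.19, adjusted p = 2.55e-07) and 14.7-fold at 7 days (log2 3.87, SE 0.20, adjusted p = 6.08e-07). RSEM gave shorter Mdk transcripts in uncrushed Schwann cells (552 to 708 bases) than in the other libraries (805 to 811 bases), so that the ratio of FPKM there is smaller than that of counts.

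Whole nerve had 27.0 and 36.5 FPKM of Mdk when uncrushed, 57.2 and 60.4 FPKM at 3 days, 73.0 and 71.9 FPKM at 5 days and 64.7 and 85.3 FPKM at 7 days. Its log2 fold change was 0.50 at 3 days (SE 0.16, adjusted p = 0.0263), 0.79 at 5 days (SE 0.16, adjusted p = 0.0033) and 0.84 at 7 days (SE 0.16, adjusted p = 0.0027). The 3-day call was lost without replicate 1 of uncrushed whole nerve (log2 0.29, adjusted p = 0.209) and without either 3-day library (adjusted p = 0.0693 and 0.104). By counts, uncrushed whole nerve held 12.1-fold more Mdk than uncrushed Schwann cells, and by mean FPKM 6.89-fold more (log2 count ratio of Schwann cells to whole nerve -3.60, SE 0.22, adjusted p = 6.37e-09), and the log2 ratio was -0.47 at 3 days (adjusted p = 0.0204), -0.31 at 5 days (not called, adjusted p = 0.1104) and -0.68 at 7 days (adjusted p = 0.0027), each with an SE of 0.16.

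Ptn rose later and less than Mdk in Schwann cells. Its level was 75.7 and 56.6 FPKM when uncrushed, 81.0 and 75.1 FPKM at 3 days, 200 and 182 FPKM at 5 days and 208 and 167 FPKM at 7 days. The 3-day libraries overlapped the uncrushed libraries, and those of 5 and 7 days did not. The log2 fold change was 0.29 at 3 days (SE 0.15, adjusted p = 0.1228), 1.50 at 5 days (SE 0.15, adjusted p = 2.61e-05) and 1.46 at 7 days (SE 0.15, adjusted p = 4.2e-05). Without replicate 1 of the uncrushed cells the 3-day value was 0.48 (adjusted p = 0.0274).

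The course of Ptn in whole nerve was close in level to that in Schwann cells, with 57.2 and 44.9 FPKM when uncrushed, 95.5 and 116 FPKM at 3 days, 176 and 165 FPKM at 5 days and 159 and 152 FPKM at 7 days. Its log2 fold change was 0.64 at 3 days (SE 0.13, adjusted p = 0.0021) and 1.32 at 5 days (SE 0.13, adjusted p = 1.99e-05). The log2 ratio of Schwann cells to whole nerve was 0.06 when uncrushed, -0.40 at 3 days, 0.11 at 5 days and 0.21 at 7 days, each with an SE of 0.15, and was called at 3 days alone (adjusted p = 0.0323). That call was lost without either 3-day Schwann cell library (adjusted p = 0.0718 and 0.144) and without replicate 2 of 3-day whole nerve (adjusted p = 0.243).

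**Figure D3:**
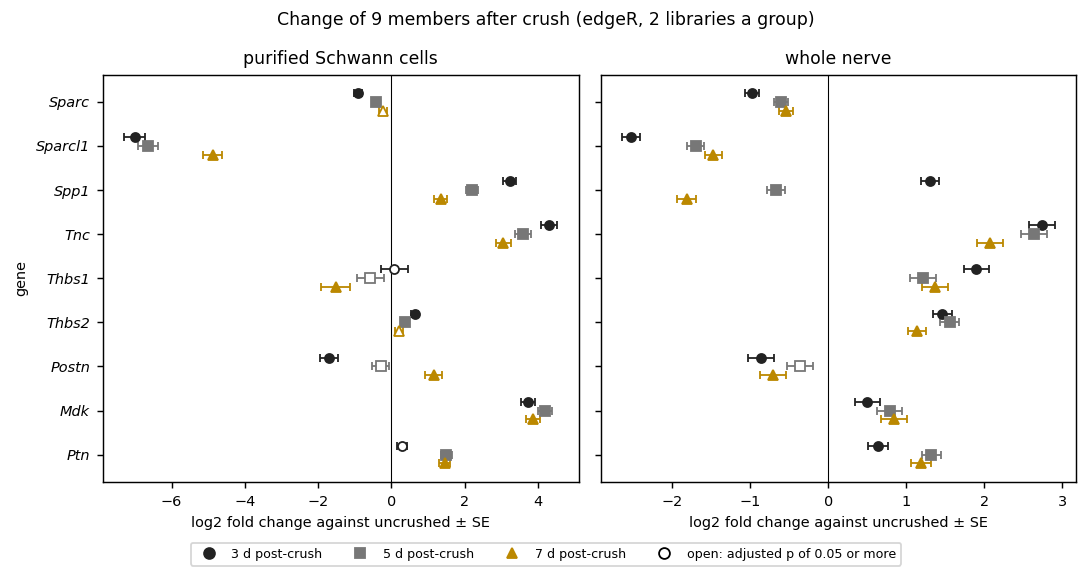
Log2 fold change against uncrushed (horizontal axes, ± SE) of 9 members in purified Schwann cells and whole nerve at 3, 5 and 7 days, with open symbols where the adjusted p was 0.05 or more. Sparcl1 is the farthest to the left in both panels at 3 days, Spp1 is right of 0 in Schwann cells at all 3 times and left of 0 in whole nerve at 5 and 7 days.

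Between 3 and 7 days in Schwann cells, 4 of the 9 tested members were higher (Postn, Ptn, Sparc and Sparcl1) and 4 lower (Spp1, Thbs1, Thbs2 and Tnc), beside 21.0% of all genes called in either direction. The call of Thbs2 was lost without any of the 4 libraries compared, at adjusted p from 0.0663 to 0.142. In whole nerve 3 were higher and 3 lower over this interval, beside 21.2% of all genes. Without replicate 2 of 3-day whole nerve 3 members were called, and Sparc, Tnc and Thbs1 were not (adjusted p = 0.0653, 0.0832 and 0.277). The whole nerve calls of Tnc and Thbs1 were also lost without replicate 1 of 7-day whole nerve (adjusted p = 0.0698 and 0.202), that of Ptn without replicate 1 of 3-day whole nerve (adjusted p = 0.106), and that of Thbs1 in the fit of all 16 libraries (adjusted p = 0.128). In Schwann cells the call of Thbs1 was lost without either 7-day library (adjusted p = 0.0891 and 0.0804). In Schwann cells, Sparcl1 rose 4.36-fold (log2 2.12, SE 0.24, adjusted p = 0.000305) and Tnc fell 2.37-fold (log2 -1.24, SE 0.19, adjusted p = 0.0017) over these days.

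Purified Schwann cells were compared with whole nerve at each stage to see which members the purified cells carry. When uncrushed, 3 of 9 were higher in Schwann cells and 5 lower, beside 29.1% and 35.3% of 16829 tested genes. At 3 days 2 were higher and 7 lower, beside 24.5% and 32.8%. At 5 days 2 were higher and 4 lower, beside 23.2% and 28.4%, and at 7 days 3 were higher and 5 lower, beside 22.4% and 28.7%. The 7-day call of Spp1 as higher (log2 0.53, adjusted p = 0.0113) was lost without replicate 1 of the 7-day Schwann cells (adjusted p = 0.0806) and without replicate 2 of 7-day whole nerve (adjusted p = 0.0833). The 3-day call of Mdk as lower was lost without replicate 1 of the 3-day Schwann cells (adjusted p = 0.191) and without either 3-day whole nerve library (adjusted p = 0.0558 and 0.0848). Tnc and Thbs2 were higher in Schwann cells at all 4 stages, and Thbs1, Postn and Sparc lower at all 4.

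**Figure D4:**
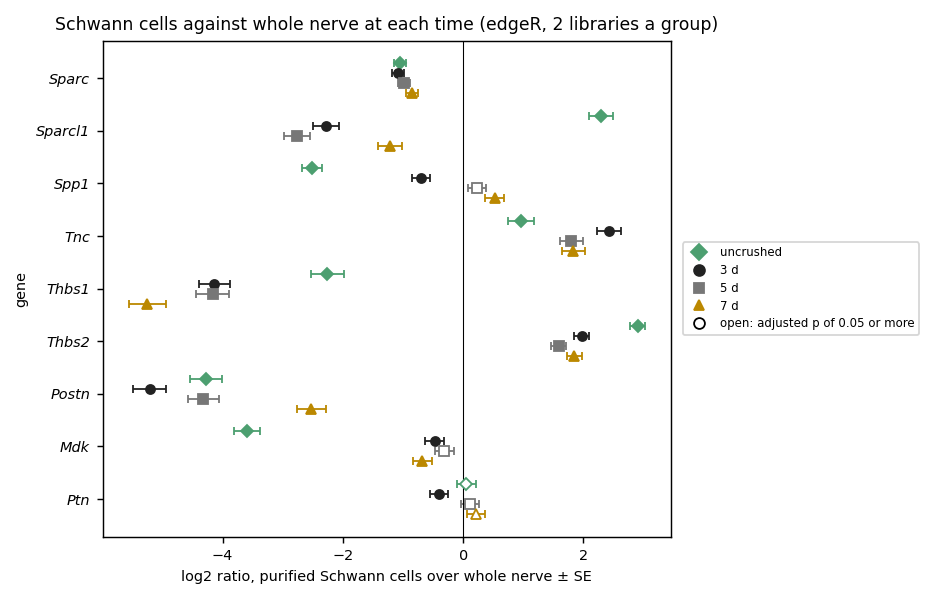
Log2 ratio of purified Schwann cells to whole nerve (horizontal axis, ± SE) for 9 members at 4 stages, with open symbols where the adjusted p was 0.05 or more. Tnc and Thbs2 lie right of 0 at all stages, Sparcl1 moves from 2.30 when uncrushed to -2.28 at 3 days, and Mdk from -3.60 to -0.47.

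The order of the FPKM levels over the 8 groups differed from member to member. For Sparc, the 4 whole nerve groups lay above the 4 Schwann cell groups, and 7-day and 5-day whole nerve overlapped. For Thbs2 the 4 Schwann cell groups lay above whole nerve, where 5 and 3 days overlapped. For Postn and Thbs1 whole nerve lay above all Schwann cell groups. Postn overlapped between 5-day and uncrushed and between uncrushed and 7-day whole nerve, and between uncrushed and 5-day Schwann cells. Thbs1 overlapped between 7-day and 5-day whole nerve and between 3-day and uncrushed Schwann cells. For Tnc the crushed Schwann cells came first, then crushed whole nerve, in which 3 and 5 days overlapped, and then uncrushed Schwann cells and uncrushed whole nerve. For Sparcl1 uncrushed Schwann cells came first and uncrushed whole nerve next, and 3-day whole nerve overlapped 7-day Schwann cells. Mdk was highest in 7-day and 5-day whole nerve, which overlapped, and 3-day Schwann cells overlapped uncrushed whole nerve. Ptn was highest in 5-day and 7-day Schwann cells and 5-day whole nerve, which overlapped in that order, as did 3-day Schwann cells, uncrushed Schwann cells and uncrushed whole nerve at the low end.

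The effect of injury was then compared between the tissues as an interaction of tissue and stage. At 3 days 7 of 9 members differed in their effect, beside 26.0% of all genes. The log2 fold change was higher in Schwann cells for 3 (Mdk, Spp1 and Tnc) and lower for 4 (Postn, Sparcl1, Thbs1 and Thbs2). For Postn and Sparcl1 the lower value was a larger fall, and for Thbs1 and Thbs2 a smaller or uncalled rise. At 5 days 6 differed, beside 27.5%, and at 7 days 7 differed, beside 26.0%. Sparcl1 had the lowest difference at each time, at -4.58, -5.06 and -3.52 on the log2 scale, and Mdk was at 3.13, 3.28 and 2.92. Ptn and Sparc were called at none of the 3 times.

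The other genes of these families were followed as a list of 22, of which 21 were in the table and 13 were tested in Schwann cells. At 3 days 10 of the 13 were lower and 2 higher, beside 25.7% and 26.9% of all genes, with a median log2 fold change of -1.28 beside 0.00 over all genes. The lower genes included the SPARC relatives Smoc1 (log2 -3.95, SE 0.38, adjusted p = 2.18e-05), Smoc2 and Fstl1, and the CCN genes Cyr61, Ctgf, Nov and Wisp1 (log2 -1.90, SE 0.43, adjusted p = 0.0043). At 7 days 5 were lower and 3 higher, beside 21.9% and 25.0%. In whole nerve, 4 of 17 were higher and 8 lower at 3 days, beside 23.1% and 22.5%, and 6 were higher and 7 lower at 7 days, beside 15.4% and 15.9%.

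Thbs4, a pentameric thrombospondin, was the family member with the clearest rise in Schwann cells beside Tnn. It had 5.29 and 3.35 FPKM when uncrushed, 179 and 224 FPKM at 3 days, 114 and 134 FPKM at 5 days and 56.5 and 56.2 FPKM at 7 days. The 3-day log2 fold change was 5.60 (SE 0.21, adjusted p = 6.37e-08), a larger rise than that of any tested member. In whole nerve Thbs4 had 82.5 and 109 FPKM when uncrushed and 311 and 275 FPKM at 3 days (log2 1.21, SE 0.14, adjusted p = 4.77e-05). The thrombospondins of Schwann cells ranged from 5.60 (Thbs4) to -0.98 (Thbs3) in log2 fold change at 3 days.

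The receptors and binding partners formed a list of 26, all in the table, with 24 tested in Schwann cells. At 3 days 9 were higher and 10 lower in Schwann cells, beside 26.9% and 25.7% of all genes, with a median log2 fold change of -0.21. At 5 days 9 were higher and 8 lower, beside 29.0% and 25.6%, and at 7 days 10 were higher and 9 lower, beside 25.0% and 21.9%. In whole nerve 12 of 25 were higher and 4 lower at 3 days, beside 23.1% and 22.5%. At 5 days 12 were higher and 2 lower there, beside 18.9% and 19.5%, and at 7 days 11 were higher and 1 lower, beside 15.4% and 15.9%.

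The largest rises in Schwann cells at 3 days were in the midkine-binding syndecan Sdc1 (log2 3.25, SE 0.28, adjusted p = 1.01e-05) and the integrin chains Itga5 (log2 2.03, SE 0.19, adjusted p = 1.5e-05), of the fibronectin receptor, and Itga8 (log2 1.95, SE 0.20, adjusted p = 3.64e-05), of a receptor of tenascin-C and osteopontin. Sdc1 was still at a low level, with 0.25 and 0.25 FPKM when uncrushed and 2.14 and 2.51 FPKM at 3 days. Itga8 went on to 4.14 to 5.28 FPKM at 7 days from 0.36 FPKM in both uncrushed libraries. The receptor phosphatase Ptprz1 had 61.4 and 47.6 FPKM in uncrushed Schwann cells and 96.7 and 104 FPKM at 7 days, a log2 fold change of 0.86 (SE 0.11, adjusted p = 0.000218). The osteopontin receptor Cd44 had 145 and 142 FPKM when uncrushed and 216 and 220 FPKM at 3 days (log2 0.66, SE 0.10, adjusted p = 0.000312). Both Ptprz1 and Cd44 exceeded their whole nerve levels in Schwann cells at all 4 stages.

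Falls among receptors included genes of synaptic and axoglial adhesion. Neuroligin 1 (Nlgn1) fell by 4.27 at 3 days (SE 0.32, adjusted p = 3.5e-06). Contactin 1 (Cntn1) had 13 and 16 counts in uncrushed Schwann cells and 0 counts in both 3-day libraries, at least 15.7-fold lower. In whole nerve Nlgn1 was also called lower at 3 days, but Cntn1 was called higher. There Cntn1 had 0.46 and 0.28 FPKM when uncrushed and 1.33 and 0.99 FPKM at 3 days. The integrin chain Itgb3 (log2 -1.86, SE 0.21, adjusted p = 6.51e-05) and the syndecan Sdc4 (log2 -1.28, SE 0.15, adjusted p = 8.58e-05) were also lower in Schwann cells, and in whole nerve Sdc4 was higher (log2 0.74, SE 0.14, adjusted p = 0.0013).

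**Figure D5:**
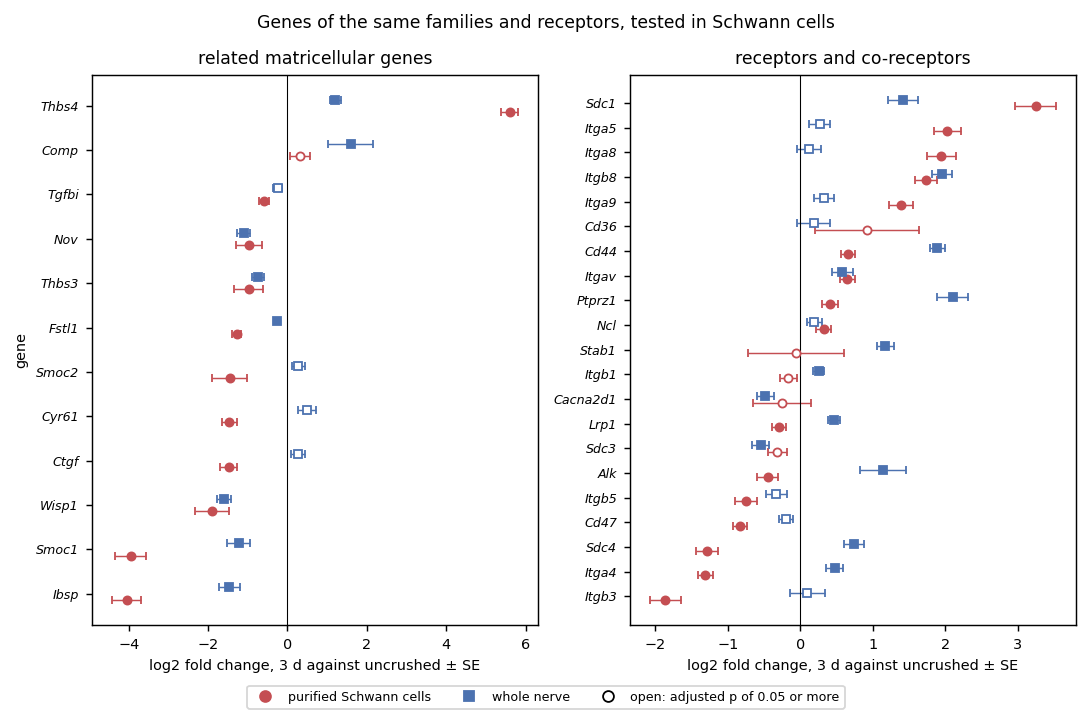
Log2 fold change at 3 days against uncrushed (horizontal axes, ± SE) of genes of the same families (left) and of receptors and binding partners (right) in purified Schwann cells (circles) and whole nerve (squares), with open symbols where the adjusted p was 0.05 or more. The genes shown had no group at 3 counts or fewer in every library, and Thbs4 at 5.60 and Sdc1 at 3.25 stand farthest right for Schwann cells.

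The genes whose profile over the 16 libraries was most like that of each member were listed as a description. The profiles share libraries, depth and tissue, and no test was made of them. Tnc was closest to Adamts4 (Pearson r = 0.99), Stox2 and Plat, with Adamts4 coding for a protease of proteoglycans and Plat for tissue plasminogen activator. Sparcl1 was closest to Kctd12 (r = 0.99), Npr3 and Col14a1. Thbs1 was closest to Pik3r5 (r = 0.99), the complement component C3 and Art4, and Postn to Wnt5a (r = 0.99), Ptprk and Tc2n. Glb1 and Cthrc1 were among the genes most like Mdk (r = 0.98 for both). Ptn (Adh5, r = 0.95) and Spp1 (Praf2, r = 0.95) had the least close partners of the 9.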

How the data were processed

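The authors made cDNA by amplification without molecular identifiers, aligned paired reads to Rnor_6.0 with STAR and estimated expression with RSEM, per the labels and the methods of the study. The deposited expected counts are RSEM's estimates per gene, not normalized, and were rounded to whole numbers here. The deposited FPKM values were made by the authors with RSEM and are scaled to effective transcript length and to the fragments of each library. RSEM's mean transcript length per gene was read from the same files. The count matrix and the module table of the series were not used, and 0 columns of other samples were left over. Because amplified fragments are not independent molecules, limits from counts cover counting error only.

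Counts were tested with edgeR 4.0.16 in R 4.3.3 (TMM normalization, filterByExpr, quasi-likelihood F test, Benjamini-Hochberg adjustment over all genes tested), in fits of the 8 Schwann cell libraries, the 8 whole nerve libraries and all 16. Each SE was obtained as the absolute log2 fold change over the root of its F value. In the whole nerve fit the TMM factors were 0.81 in both uncrushed libraries and 1.06 to 1.09 in the crushed ones. Whole nerve folds against uncrushed therefore lay below the ratios of mean FPKM for the tested members. For Spp1 at 5 days the ratio was 0.84 by mean FPKM and 0.63 by edgeR. Samples were grouped by tissue and day from their titles. Whether replicates of a group came from separate surgeries is not stated, so p-values measure the spread between these pools, which may be technical. Replicate numbers did not pair the libraries: differences between replicates 1 and 2 correlated at -0.058 to 0.175 between groups of a tissue and at -0.037 to 0.025 between tissues of a day. A group with 3 counts or fewer in every library was treated as at the floor, and folds against it are bounds from 3 counts over the group. DESeq2 1.42.0, upper quartile normalization, other filters, other sets of libraries and leaving out each library were the alternatives.

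Members and lists were chosen with earlier results of these data known. All members are named, together with, in each list, up to 3 genes with the largest rise and 3 with the largest fall at 3 days in Schwann cells among those called, and the 3 genes most like each member by Pearson correlation of log2 CPM (prior count 2). Smoc2, Fstl1, Cyr61, Ctgf, Nov, Thbs3, Mepe, Dmp1, Dspp, Ptprz1, Cd44, Itgb3 and Sdc4 were named after their values were seen. The records of RefSeq (GRCr8) gave promoters and gene order, and none of its coordinates was set against the files. Results of a few genes that the rule would name are not reported here.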

Additional observations from a re-analysis of the deposited data

Results flagged for a closer look

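The effect of injury differed between purified Schwann cells and whole nerve for 7 of the 9 tested members at 3 days, 6 at 5 days and 7 at 7 days, by edgeR's test of the interaction of tissue and stage, beside 26.0%, 27.5% and 26.0% of all 16829 genes tested. The values below are log2 fold changes in Schwann cells minus those in whole nerve. Mdk was at 3.13 at 3 days, 3.28 at 5 days and 2.92 at 7 days. Spp1 was at 1.82, 2.74 and 3.04 at these times. Tnc was at 1.46, 0.84 and 0.87. Sparcl1 was at -4.58, -5.06 and -3.52. Thbs1 was at -1.88, -1.90 and -3.00, and without replicate 2 of the 3-day Schwann cells its 3-day value was -2.66. Thbs2 was at -0.93, -1.31 and -1.05. Postn was at -0.94 at 3 days and 1.75 at 7 days. The call of Postn at 3 days and those of Tnc at 5 and 7 days were each lost without any of 5 single libraries, at adjusted p from 0.0596 to 0.206. The uncrushed libraries of each tissue are shared by the 3 times, so these values are not independent of each other.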

How the results depend on the processing

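Of 1467 values of single members under the alternatives, 1385 kept their direction and side of the threshold, 54 lost a call, 10 gained one and 18 changed sign. The 18 changes of sign all fell on differences that were not called. Without single libraries, Thbs1 in Schwann cells at 3 days ranged from -0.65 to 0.51, Mdk in Schwann cells from 3 to 7 days from -0.016 to 0.35, Ptn in uncrushed Schwann cells against whole nerve from -0.15 to 0.24, and the difference of effects between tissues from -0.078 to 0.068 for Sparc at 3 days, from -0.34 to 0.22 for Postn at 5 days, from -0.12 to 0.26 for Ptn at 5 days and from -0.047 to 0.36 for Ptn at 7 days. With upper quartile normalization the differences were 0.00 for Sparc at 3 days and 0.025 for Postn at 5 days. The cause was not tested.

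Without single libraries, the genes called from 3 to 7 days ranged from 1533 to 2182 in Schwann cells (3140 with all) and from 1635 to 2516 in whole nerve (3357 with all), and the members called in whole nerve over that interval from 3 to 6. A lone library was then assumed to vary like the other groups. With the replicate block, Ptn in Schwann cells at 3 days (0.30, adjusted p = 0.0419) and Thbs2 in whole nerve from 3 to 7 days (-0.32, adjusted p = 0.0254) became called, and no other call changed. Upper quartile normalization moved the median log2 ratio of all genes between Schwann cells and whole nerve at 5 days from -0.03 to 0.11. It turned the balance of genes called there from 3907 higher and 4787 lower to 4930 and 4105, and at 7 days from 3763 and 4825 to 4546 and 4299. When uncrushed and at 3 days more genes stayed lower than higher. In Schwann cells at 3 days against uncrushed the balance turned from 4020 higher and 3840 lower to 3562 and 4265. With this normalization Mdk and Ptn at 3 days were not called between tissues (adjusted p = 0.0565 and 0.0905). Requiring 10 counts in every library gave 3229 higher and 2680 lower between tissues at 5 days and 3187 and 2820 at 7 days. In the fit of all 16 libraries, 60.8% of the genes called in whole nerve at 7 days were higher, against 49.3% in the fit of whole nerve alone. Ranked by normalized counts in place of FPKM, 1 of 28 pairs of groups changed order for each of Spp1, Postn and Mdk and none for the other tested members. Depth limits Tnr, which had at most 14 counts in a library.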
